A study of Mus musculus with 3 samples.

Results

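The subunits of the oxidative phosphorylation complexes were examined in 3 pooled RNA sequencing libraries of Ret-EGFP cells from embryonic mouse dorsal root ganglia. Members were chosen by symbol: the Nduf, Sdh, Uqcr, Cyc1, Cox4 to Cox8 and Atp5 families of the nuclear genome and the Nd, Co, Atp and Cytb genes of the mitochondrial chromosome. Pseudogene symbols were left out. The rule took 102 of the 41388 genes in the deposited tables, of which 13 are mitochondrially encoded and 89 nuclear.

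The cells were sorted by flow cytometry for EGFP under the control of Ret, the receptor of GDNF family ligands, at 12.5 days post coitum on a C57BL/6 background. The sample labels give the genotype as Tg(Ret-EGFP)SJ/, whereas the series text describes a heterozygous knock-in of EGFP at the Ret locus, and this difference was not resolved. Library B was pooled from 340 ganglia of 17 embryos (10 male, 7 female), library C from 300 ganglia of 15 embryos and library D from 60 ganglia of 3 embryos, all of spinal levels T11 to S1. The 3 pools belong to 1 group and no other condition was sampled, so the comparisons below are between genes within a library and between pools of the same kind of cell. The counts summed to 18072199, 11666241 and 20966139 in libraries B, C and D. All 12 neuronal markers examined, led by Tubb3, Stmn2 and Gap43, were at 1 TPM (counts per length, scaled to the same sum in each library) or more in every library. All 8 markers of glia and Schwann cell precursors and 7 of 10 erythroid markers were also at that level. In such pools fewer cells of a type and less RNA per cell cannot be told apart.

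Oxidative phosphorylation takes place on the inner mitochondrial membrane. Complex I (NADH dehydrogenase) and complex II (succinate dehydrogenase) feed electrons into the chain, complex III passes them to cytochrome c, complex IV reduces oxygen, and complex V (ATP synthase) uses the resulting proton gradient to make ATP. Most subunits are encoded in the nucleus and imported, while the mitochondrial chromosome encodes a few hydrophobic core subunits of complexes I, III, IV and V. Developing sensory neurons rely on this pathway to supply their growing axons.

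The mitochondrial chromosome also has near-identical copies in the nuclear genome, and the annotation holds a row of them on mouse chromosome 1. The start of mt-Nd3 (MT:9459-9518, plus strand) and the start of its chromosome 1 copy Gm28438 (chr1:24612775-24613119, minus strand, GRCm38) are printed here because mt-Nd3 had no counts and its copy had some. The letters come from GENCODE M21 transcripts, and the capital marks the base that differs.
mt-Nd3: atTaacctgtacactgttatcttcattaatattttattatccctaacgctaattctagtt
Gm28438: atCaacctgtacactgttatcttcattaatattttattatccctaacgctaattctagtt
The pair differed at 1 of 345 compared bases, T3C, counted from the first base of mt-Nd3.

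Of the 13 mitochondrially encoded subunits, 7 were counted and 6 had 0 counts in all 3 libraries. mt-Cytb, the cytochrome b of complex III, was highest, with 9355, 7709 and 8412 TPM in B, C and D. mt-Nd1, a membrane core subunit of complex I, followed at 8646, 8504 and 8207 TPM in B, C and D. mt-Co1, the catalytic subunit of complex IV, stood at 2857, 3965 and 3702 TPM in B, C and D. Of all 102 members, mt-Cytb and mt-Nd1 had the highest mean levels, followed by the nuclear Ndufa4 (mean 3551 TPM) and mt-Co1 (mean 3508 TPM).

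The other counted mitochondrial genes all encode membrane subunits of complex I and stood lower. mt-Nd2 had 1386, 962 and 789 TPM in B, C and D, and mt-Nd4 had 1268, 732 and 685 TPM. mt-Nd5 had 749, 563 and 696 TPM in B, C and D. mt-Nd6, the only subunit gene on the other strand, had 868, 594 and 495 TPM.

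In the order of levels, mt-Cytb and mt-Nd1 could not be separated, with a mean log2 difference of 0.0026 ± 0.13 (SD, n = 3). mt-Nd1 exceeded mt-Co1 by 1.28 ± 0.27 log2 units, and mt-Co1 exceeded mt-Nd2 by 1.77 ± 0.64, both in 3 of 3 libraries. mt-Nd2 exceeded mt-Nd4 by 0.24 ± 0.14 in 3 of 3 libraries, on the deposited lengths. The lower neighbours, mt-Nd4 over mt-Nd5 (0.37 ± 0.39) and mt-Nd5 over mt-Nd6 (0.07 ± 0.37), did not differ beyond their spread. mt-Nd4 and mt-Co1 share much of their sequence with other genes, as given below, and their places depended on the length used. A setting chosen after the data were seen took only unshared sequence as length and kept all counts. It assumes that no counted read came from shared sequence, which was not tested. Under it mt-Nd2 stood below mt-Nd4 (-1.04 ± 0.14) and mt-Nd4 exceeded mt-Nd5 by 1.66 ± 0.39. mt-Co1 exceeded mt-Nd2 by 2.68 ± 0.64, and mt-Nd1 and mt-Co1 did not differ beyond their spread (0.25 ± 0.27, SD, n = 3).

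The genes at 0 were mt-Co2 and mt-Co3 (complex IV), mt-Atp6 and mt-Atp8 (complex V) and mt-Nd3 and mt-Nd4l (complex I). Genes at 0 in every library were common in the table as a whole, 43.1% of all 41388, against 8 of the 102 members. The subunit genes at 0 lay close together on the mitochondrial chromosome. The longest run at 0 in every library held 9 successive features from mt-Ts1 to mt-Nd3 (MT:6870-9806, 2937 bases), 5 of them subunits. mt-Nd4l (MT:9877-10173) lies just beyond this run, past mt-Tr, which had 1 count in C. The transfer RNA genes mt-Tw, mt-Ty and mt-Th, elsewhere on the chromosome, were also at 0 in every library. For mt-Co2, a count of 0 allows up to 0.486, 0.731 and 0.569 TPM in B, C and D at 3 counts per library. For mt-Atp8, the shortest member, it allows 1.63, 2.45 and 1.91 TPM.

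The zeros coincided with sequence that the reference holds in more than one place. The longest annotated transcript of each member was cut into all of its 50-base windows. Windows also found in a transcript of another gene were counted as shared. The shared part was 100% of mt-Co2, 99.5% of mt-Atp6, 99.9% of mt-Co3, 98.0% of mt-Nd3 and 98.8% of mt-Nd4l. It was 62.2% of mt-Nd4, 51.1% of mt-Co1, 8.19% of mt-Nd2 and 7.61% of mt-Nd5. mt-Cytb, mt-Nd1 and mt-Nd6 shared none, and all of them were counted.

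mt-Atp8 was the exception, at 0 counts with no shared window. By the spacing of its neighbours' copies its place on chromosome 1 would be 24614609 to 24614812, between and partly within the annotated copies, where no whole copy of it is annotated. The copies themselves carried few counts. Gm28661, the copy of mt-Co2 (chr1:24614885-24615565, identical over 681 bases), and Gm10222, the copy of mt-Nd4l, had 0 counts in every library. Gm10925, the copy of mt-Atp6, had 1, 3 and 1 counts in libraries B, C and D, and Gm28437, the copy of mt-Co3, had 3, 0 and 0. Gm28438, the copy of mt-Nd3 shown above, had 46, 35 and 97 counts. How reads that match more than one place were counted is not given in the sources used here, and the part of shared sequence in the zeros was not tested.

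**Figure D1:**
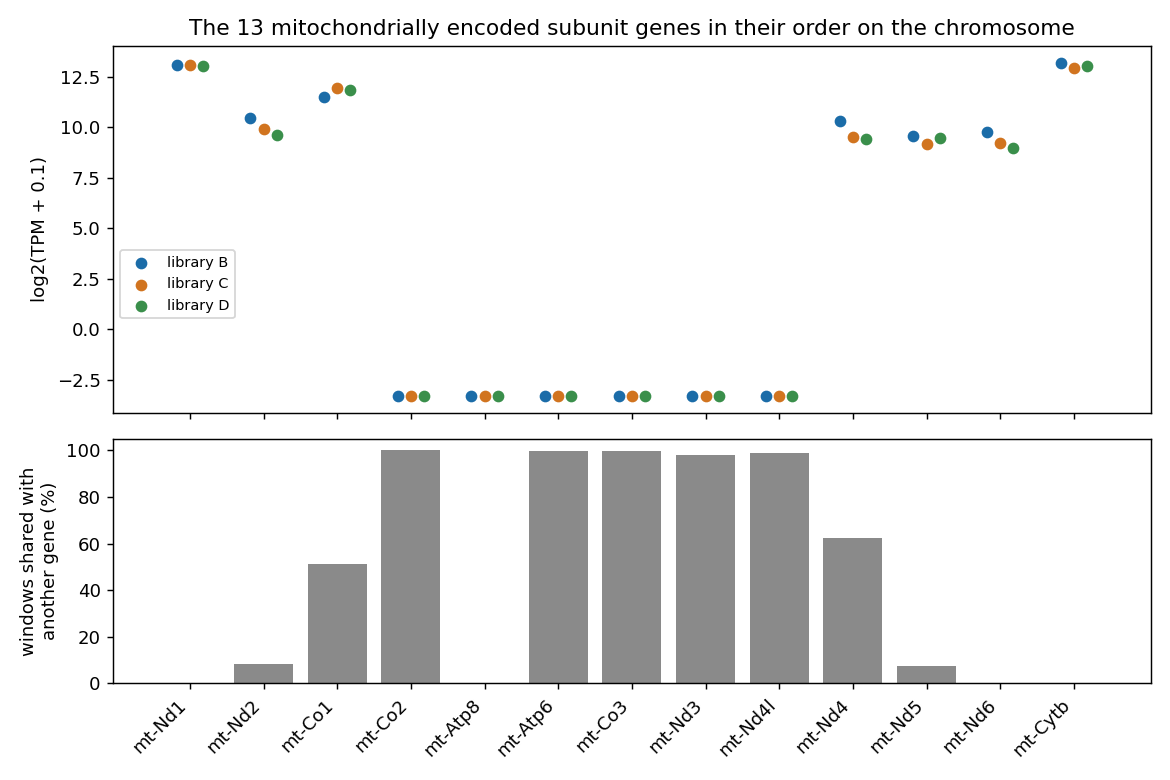
Upper panel, log2(TPM + 0.1) of the 13 mitochondrially encoded subunit genes in chromosome order, with a point for each library. Lower panel, the percentage of each transcript's 50-base windows found in another gene: 5 of the 6 genes at 0 share 98.0% or more, and mt-Atp8 shares none.

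Of the 89 nuclear subunits, 82 were at 1 TPM or more in every library. With the 7 mitochondrial ones, 89 of 102 members passed this limit, against 28.7% of all 41388 genes. Nuclear levels were broad: 63 members exceeded 100 TPM in every library, 9 exceeded 1000 TPM, and between 22 and 24 were under 100 TPM in each library.

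Among the 38 nuclear members of complex I, 37 were detected, with mean levels of 3.32 to 1955 TPM. Ndufb9 was highest, with 2465, 2133 and 1267 TPM in B, C and D. Ndufc2 had 1516, 1082 and 1126 TPM in B, C and D, and Ndufa6 had 1492, 953 and 706 TPM. Ndufa1, an X-linked subunit needed for assembly, had 1820, 385 and 814 TPM in B, C and D. All of these encode accessory subunits. Ndufb4c was the single nuclear member of complex I at 0, and all of its windows are shared with Ndufb4. At the low end of those detected, Ndufs6b had 12, 5 and 10 counts and Ndufa11b had 23, 8 and 13 in B, C and D. They share 25.4% of their windows with Ndufs6 and 10.4% with Ndufa11. Both were chosen after their values were seen.

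Complex II, the only complex with no mitochondrially encoded subunit, was detected in full. Sdhb, the iron-sulfur subunit, was the highest on average, with 921, 640 and 675 TPM in B, C and D. Sdhd, a membrane anchor, had 744, 82.0 and 687 TPM, and was low in C alone. Sdhc, the other anchor, had 299, 191 and 248 TPM in B, C and D. Sdha, the flavoprotein that oxidises succinate, had 141, 98.6 and 301 TPM, and was highest in D.

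All 9 nuclear members of complex III were detected, with mean levels of 352 to 1257 TPM. Uqcr10, a small accessory subunit, had 2052, 811 and 910 TPM in B, C and D. Uqcrc1, a core protein, had 1199, 1076 and 702 TPM. Uqcr11 had 1205, 669 and 471 TPM and Uqcrh, the hinge protein, had 953, 590 and 548 TPM in B, C and D.

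Complex IV held the highest nuclear members and most of those not detected, with 16 of 21 detected. Ndufa4, first assigned to complex I and now known as a subunit of complex IV, had 4716, 2926 and 3012 TPM in B, C and D. Cox6b1 had 5040, 2640 and 2220 TPM, Cox6a1 had 3400, 3063 and 978 TPM and Cox4i1 had 2623, 2111 and 1430 TPM. Each of these was highest in B, and Cox6a1 in D was well under its level in the other libraries.

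In complex V, 16 of 17 nuclear members were detected. Atp5mpl, a small membrane subunit, had 2826, 1427 and 1313 TPM in B, C and D. Atp5a1, the alpha subunit, had 1329, 1179 and 1156 TPM. Atp5c1, the gamma subunit that turns inside the catalytic head, had 1104, 1117 and 1165 TPM in B, C and D. Its highest level was 1.05 times its lowest, the smallest ratio of any nuclear member. Atp5k, subunit e, had 1732, 662 and 652 TPM.

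Some constitutive subunits stood far below their partners. Cox7c had 24.4, 21.2 and 18.7 TPM in B, C and D, and Atp5l had 12.9 to 26.9 TPM. Both were chosen after their values were seen. Cox7c shares 27.9% of its windows with other genes and Atp5l 7.49%, each counted over its longest annotated transcript. For Atp5l that transcript has 6310 bases, against a deposited length of 511. Its 7.49% therefore does not describe the counted sequence. The part of that sharing in their levels was not tested.

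**Figure D2:**
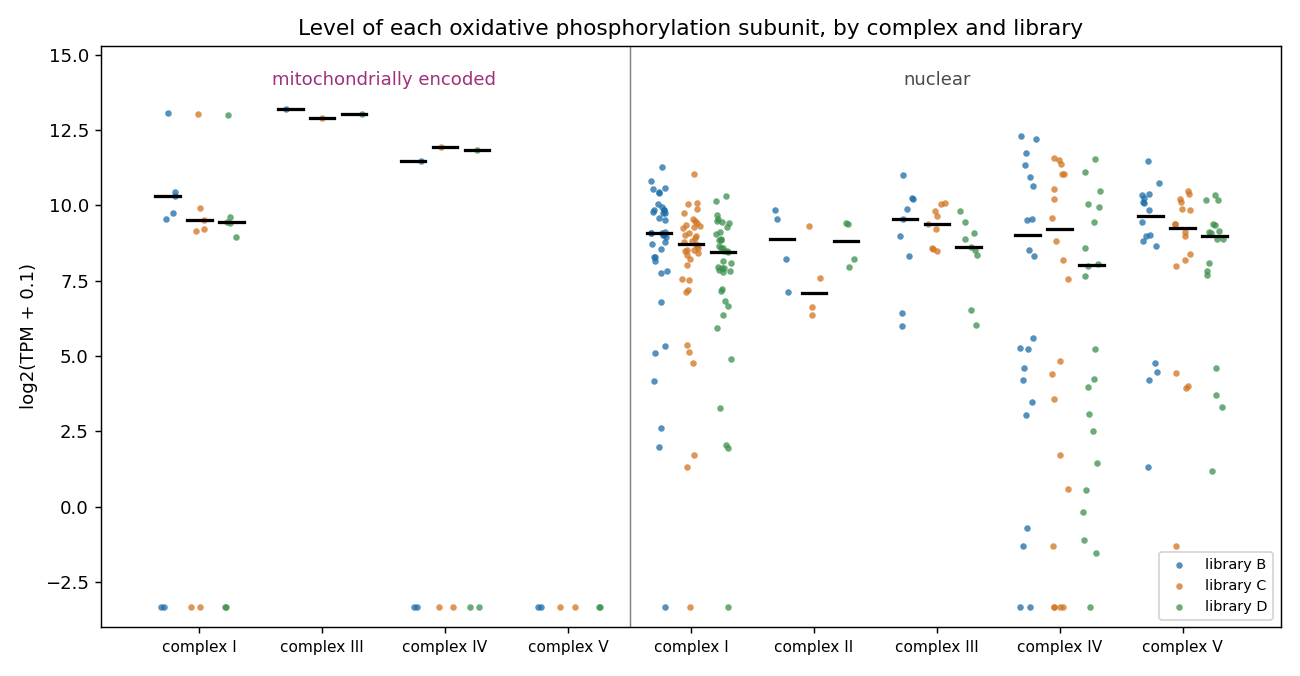
Log2(TPM + 0.1) of each of the 102 subunit genes, mitochondrially encoded on the left and nuclear on the right, by complex and library. Black bars are medians over the genes at 1 TPM or more in every library; the bottom row holds genes at 0 counts in that library, including both mitochondrial genes of complex V.

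Levels of mitochondrially encoded and nuclear subunits were compared within each library. Mitochondrially encoded members were higher at the median. Over members with a count in any library, the median was 1386, 962 and 789 TPM in B, C and D for the 7 mitochondrial ones, against 541, 445 and 350 TPM for the 87 nuclear ones. The log2 difference of medians was 1.36, 1.11 and 1.17 in B, C and D, with a mean of 1.21 ± 0.13 (SD, n = 3; exact two-sided sign-flip permutation test, p = 0.25). With 3 libraries 0.25 is the smallest p this test can give.

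The groups overlapped. In B, C and D, 14, 16 and 12 nuclear members were above the mitochondrial median, and no nuclear member was above the highest mitochondrial one. The size of the difference depended on length and on the zeros. It was 0.28 ± 0.18 with the median length of a gene's coding transcripts in place of the deposited length, 0.52 ± 0.08 with members at 0 included, and 2.29 ± 0.25 with only unshared windows as length (SD, n = 3). Without members whose exons overlap another gene it was 4.10 ± 0.37, which rests on mt-Cytb as the only mitochondrial gene left.

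In sum, mitochondrially encoded members made up 26.2%, 30.4% and 37.2% of the subunits' TPM in B, C and D, a mean of 31.3% ± 5.54 (SD, n = 3). Within complex III the share was 60.1% ± 7.22, from mt-Cytb alone. Within complex I it was 38.6% ± 4.98, and within complex IV, where mt-Co1 was the only one counted, 18.7% ± 7.14 (SD, n = 3 each). These shares take the 6 genes at 0 as they are listed.

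The subunits together took 9.58%, 7.59% and 6.18% of all TPM in B, C and D, a mean of 7.78% ± 1.71 (SD, n = 3). The mitochondrial part was 2.51%, 2.30% and 2.30% in B, C and D, and the nuclear part 7.06%, 5.28% and 3.88%. In TPM the nuclear part differed between pools more than the mitochondrial part. In the edgeR fit with a length and GC offset, the median log2 ratios in D were alike, -0.74 for mitochondrial and -0.75 for nuclear members. Of the 82 detected nuclear members, 63 were highest in B and 60 lowest in D. The median SD of log2 TPM across libraries was 0.25 for the 7 mitochondrial members, 0.56 for the 82 nuclear ones and 0.64 for all 11896 detected genes.

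Several subunits of complexes IV and V exist in alternative forms, some of them known from adult heart and skeletal muscle, testis or cells under low oxygen. Over 12 pairs, the form named first below exceeded the other in every library (sign-flip p = 0.25 for each of the 9 pairs with a ratio, 0.25 after Benjamini-Hochberg adjustment, exact permutation test).

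Cox4i1 exceeded Cox4i2, the form linked to low oxygen, which had 11.0, 3.17 and 2.63 TPM in B, C and D. The log2 ratio was 8.75 ± 0.76 (SD, n = 3). Cox6b1 exceeded the testis form Cox6b2, which had 18.5, 11.9 and 8.31 TPM, by 7.97 ± 0.16 log2 units. Cox7a2, at 1976, 1199 and 1051 TPM in B, C and D, exceeded the muscle form Cox7a1 by 5.61 ± 0.39 and Cox7a2l, a factor of supercomplex assembly, by 2.24 ± 0.35. Cox7a1 had 47.8, 28.4 and 15.7 TPM and Cox7a2l had 317, 292 and 255 TPM in B, C and D.

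The muscle forms Cox6a2 and Cox8b and the testis forms Cox7b2 and Cox8c were at or near 0. Cox6a2 had 3, 0 and 4 counts in libraries B, C and D, and Cox6a1 exceeded it by 12.49 ± 2.40 log2 units with a pseudocount of 0.1 TPM, a value set by that pseudocount where Cox6a2 is at 0. Cox8b had 1, 0 and 1 counts, Cox7b2 had 0, 1 and 1 and Cox8c had 0 in every library. Cox8a, at 1620, 1502 and 697 TPM in B, C and D, was at least 852-fold higher than Cox8c in each library when Cox8c is set to 3 counts. Of 10 markers of striated muscle and heart, 2 were at 1 TPM or more in every library, near the 28.7% of all 41388 genes.

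Subunit c of complex V is made from 3 genes that encode the same mature protein. Atp5g3 had 1316, 940 and 563 TPM in B, C and D, against 22.2, 21.3 and 9.83 TPM for Atp5g1. The log2 ratio was 5.72 ± 0.23 (SD, n = 3). Atp5g2 had 36, 3 and 28 counts in libraries B, C and D, the fewest of the 3 genes in each library. Atp5g3 exceeded it by 9.40 ± 1.65 and Atp5g1 by 3.68 ± 1.86 log2 units (SD, n = 3), with the widest ratios in C, where Atp5g2 was at the floor of 3 counts.

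Ndufa4 exceeded Ndufa4l2, a paralog induced by low oxygen, by 9.65 ± 2.31 log2 units (SD, n = 3). This pair was the most uneven across pools, since Ndufa4l2 had 323 counts in B but 8 in C and 10 in D.

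**Figure D3:**
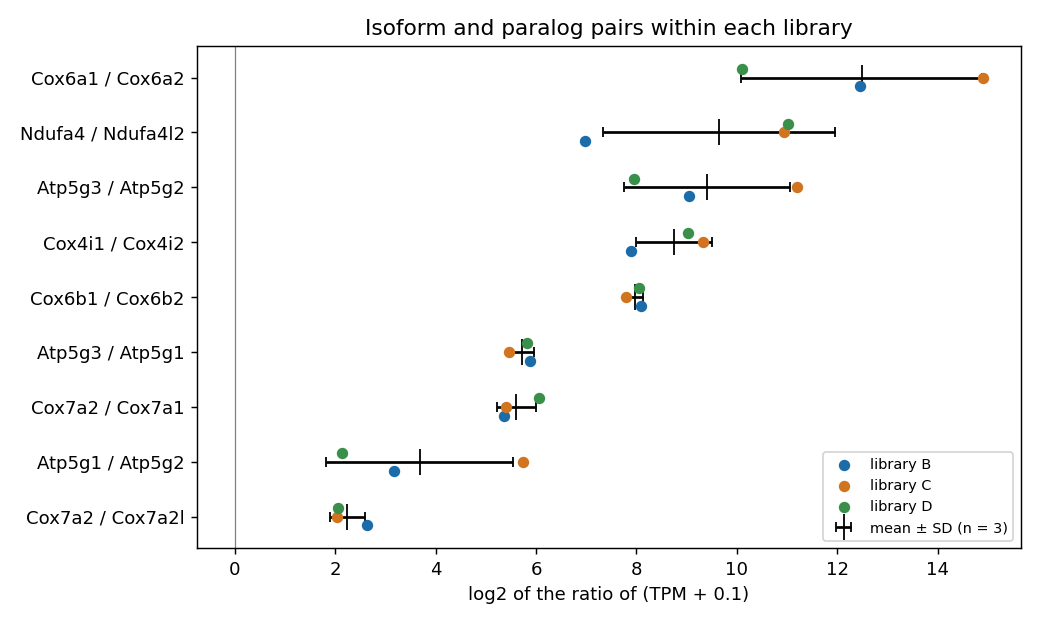
Log2 of the ratio of (TPM + 0.1) within each library for the 9 pairs with a ratio, first-named over second-named, with the mean ± SD over 3 libraries. All points lie above 0, the lowest at 2.04 for Cox7a2 over Cox7a2l in library C. The highest point, 14.90 for Cox6a1 over Cox6a2 in library C, is set by the pseudocount because Cox6a2 had 0 counts there, and with Cox6a2 at 3 counts the log2 ratio would be 11.98.

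To see how far the pools differed, each library was set against the other 2 with edgeR's quasi-likelihood test over 15727 genes, of which 91 were members (84 nuclear, 7 mitochondrial). Each such fit has 1 residual degree of freedom, takes the spread of the lone library to equal that of the pair, and says nothing of a condition. The 3 comparisons share libraries, so their results are not independent.

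Library C stood apart at 3 members of complexes III and IV. Cox5a, a nuclear subunit of complex IV (chr9:57521232-57532424, plus strand), had 8831 counts in C, against 239 in B and 201 in D. Its log2 ratio was 6.19 ± 1.04 (SE; edgeR adjusted p = 1.3e-05). Uqcrfs1, the Rieske iron-sulfur protein of complex III (chr13:30540308-30545362, minus strand), had 8692 counts in C, against 790 in B and 960 in D (log2 ratio 4.21 ± 0.97, edgeR adjusted p = 0.0059). Cyc1, the cytochrome c1 of complex III (chr15:76343523-76345934, plus strand), had 6490 counts in C, against 933 in B and 602 in D (log2 ratio 3.92 ± 0.95, edgeR adjusted p = 0.0092).

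These 3 were the members that passed in C, all higher, against 0.757% of all genes tested higher (119 of 15727) and 0.0254% lower, together 0.782%. They passed under every alternative fit of all 3 libraries. Their levels in C were within the range of the other members of their complexes, and those in B and D were under 100 TPM. Cox5a had 2134 TPM in C, against 38.4 in B and 37.8 in D. Uqcrfs1 had 1063 TPM in C, against 64.3 in B and 91.4 in D, and Cyc1 had 906 TPM in C, against 86.6 in B and 65.4 in D. The other 7 tested nuclear members of complex III had log2 ratios of -0.60 to 0.53 in C. The other 16 of complex IV ranged from -6.60 to 0.86, the lowest being Cox6c2, whose fitted value depends on the prior count because it had 0 counts in C. Cox5a shares 267 exon bases with Gm26631, which had 75 counts in C, against 21 in B and 85 in D. Uqcrfs1 and Cyc1 overlap no other gene's exons.

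Members with ratios below 0 in C did not pass. Ndufa4l2 of complex IV had the smallest p among them, with 8 counts in C, against 323 in B and 10 in D. Its log2 ratio was -3.67 ± 1.25 (edgeR adjusted p = 0.21, and 0.014 to 0.35 over DESeq2, a fit without the filter and a fit with a length and GC offset, lowest with the offset). Sdhd of complex II had 633 counts in C, against 8636 in B and 6815 in D. Its log2 ratio was -2.75 ± 1.12 (edgeR adjusted p = 0.44, DESeq2 adjusted p = 0.041, and up to 0.47 over the alternatives). Ndufb2, at 34.8 TPM in C, against 17.8 in B and 9.52 in D, had the next smallest p among the higher members (log2 ratio 1.64 ± 0.86, edgeR adjusted p = 0.75). Cox6c2, which shares 52.7% of its windows with Cox6c, had 0 counts in C, against 17 in B and 10 in D. Over all members C was close to the other libraries, with a median log2 ratio of 0.12 for the mitochondrial and 0.08 for the nuclear members, beside -0.11 for all genes. The direction of the nuclear median turned with total-count scaling (-0.017, beside -0.28 for all genes) and with a length and GC offset (-0.078). Ribosomal RNA-like features, a sign of how much ribosomal RNA entered a library, summed to 134579 TPM in C, against 42609 in B and 31452 in D. Their part in these differences was not tested.

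**Figure D4:**
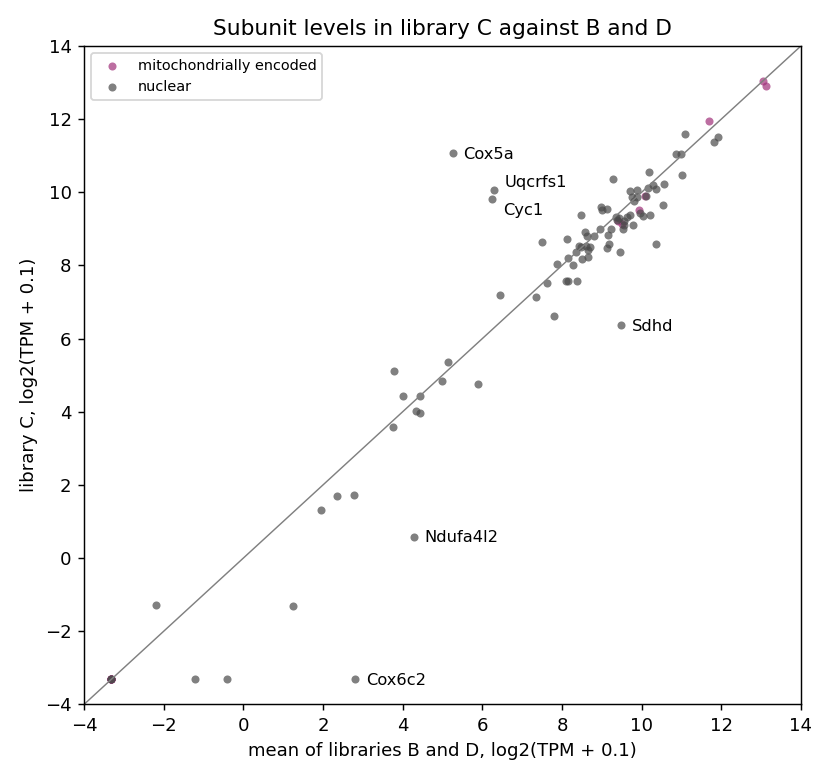
Level of every subunit gene in library C (vertical axis) against the mean of libraries B and D (horizontal axis), both log2(TPM + 0.1), with the line of equality. Most genes lie along the line; Cox5a, Uqcrfs1 and Cyc1 lie above it, and Sdhd, Ndufa4l2 and Cox6c2 below it.

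Library D, from 3 embryos, had the lowest summed nuclear subunit level. On counts with edgeR's TMM scaling, the median log2 ratio of D over the other libraries was -0.77 for the 7 mitochondrial and -1.31 for the 84 nuclear members, beside -0.017 for all genes. All 7 mitochondrial and 81 of 84 nuclear members had ratios below 0 in D, against 50.5% of all genes. Under no scaling beyond total counts, which moves the median of all genes to 0.22, the medians were -0.53 and -1.07.

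In TPM the mitochondrial members of D were near those of the other libraries. The median log2 ratio of TPM in D over the mean TPM of B and C was -0.063 for the 7 mitochondrial and -0.65 for the 82 detected nuclear members, beside 0.61 for all 11896 detected genes. Below that mean in D lay 5 of 7 mitochondrial and 74 of 82 nuclear members, against 29.9% of the detected genes. mt-Co1 had 3702 TPM in D, against 2857 in B and 3965 in C. mt-Nd5 had 696 TPM in D, against 749 in B and 563 in C, and mt-Cytb likewise lay between the others in D. The direction of mt-Co1 and mt-Nd5 in D thus differed between the scales. TPM was set beside the counts after the data were seen.

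No member, and 0% of all genes, passed the edgeR threshold in D. At an unadjusted p under 0.05, 52 of 91 members were lower and none higher, against 8.22% of all genes lower. DESeq2 called 690 genes (2.93%), 10 of them members. EdgeR without the filter on low counts called 1534 (6.51%), 24 of them members.

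The lower members with the smallest p were Cox6a1 and Cox5b of complex IV, Atp5d of complex V and Ndufb8 of complex I. Cox6a1 had 978 TPM in D, against 3400 in B and 3063 in C (log2 ratio -2.42 ± 0.41, edgeR adjusted p = 0.17). Cox5b had 266 TPM in D, against 741 in B and 774 in C (-2.21 ± 0.47). Atp5d, the delta subunit, had 209 TPM in D, against 506 in B and 668 in C. Ndufb8 had 225 TPM in D, against 541 in B and 479 in C. In each of these D lay below both other libraries.

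By the edgeR ratio the members not lower in D were Ndufs1, the largest core subunit of complex I, Sdha and Sdhd. Ndufs1 had 83.0 TPM in D, against 34.6 in B and 27.1 in C (log2 ratio 0.73 ± 0.42). Sdha had 301 TPM in D, against 141 in B and 98.6 in C (0.64 ± 0.41). In TPM, Atp5c1 and Atp5s of complex V were also highest in D, Atp5s with 24.4 TPM in D, against 18.5 in B and 15.4 in C. Atp5s was chosen after its values were seen. By complex, the nuclear median edgeR ratio in D was -1.27 for complex I, -0.30 for complex II, -1.34 for complex III, -1.48 for complex IV and -1.28 for complex V. In complex II 2 members had ratios above 0 and 2 below.

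Other measures moved with library D. Nuclear members are short, with a median deposited length of 1217 bases against 3478 for all detected genes. With an offset for length and GC content per library, the median in D was -0.74 for mitochondrial and -0.75 for nuclear members. Across the 84 nuclear members the D ratio correlated with length at a Spearman rho of 0.11 and with GC content at -0.35, as a description over genes that share libraries. The B ratio correlated with length at -0.45 and with GC content at 0.25, and the C ratio at 0.30 and -0.041. Neuronal markers summed to 24134 TPM in D, against 37382 in B and 29646 in C, a sum led by Tubb3, Stmn2 and Gap43. Singly, in TPM, 5 of these 12 markers were highest and 5 lowest in D. Pou4f1, a sensory neuron transcription factor, had 695 TPM in D, against 217 in B and 118 in C. By the edgeR ratio 10 of these 12 markers lay below 0 in D and 2 above, with a median of -0.64. Glial markers summed to 4795 TPM in D, against 3051 in B and 1510 in C, a sum led by Fabp7 and Ednrb. Ednrb was highest in D, whereas Fabp7 was highest in B. Singly, in TPM, 7 of these 8 markers, among them Erbb3 and Sox2, were highest in D. By the edgeR ratio 6 of the 8 lay above 0 in D and 2 below, against 49.5% of all genes above. Erythroid markers summed to 408 TPM in D, against 2864 in B and 1578 in C, with Slc4a1 at 0 in D. Markers of sympathetic neurons summed to 87.8 TPM in D, against 280 in B and 227 in C, with edgeR ratios below 0 in D for 6 of 6. Mesenchymal markers summed to 97.6 TPM in D, against 30.5 in B and 24.3 in C, and 4 of 6 were highest in D. The part of cell makeup in the ratios was not tested.

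Library B had the highest nuclear levels, with a median log2 ratio of 0.52 for the 7 mitochondrial and 0.88 for the 84 nuclear members, beside -0.18 for all genes. In B 76 nuclear members were higher and 8 lower, against 40.5% of all genes higher. With the length and GC offset the medians in B were 0.37 for mitochondrial and 0.64 for nuclear members, beside -0.074 for all genes. Without library D, against C alone, the medians were 0.32 and 0.43, and without library C, against D alone, they were 0.84 and 1.56 for mitochondrial and nuclear members. The 6 sympathetic markers all had ratios above 0 in B, with a median of 1.27, and their part was not tested. EdgeR called no member and 0% of all genes (1.11% at an unadjusted p under 0.05, and 0.00425%, 1 gene, by DESeq2). Ndufa4l2 had the smallest p, with 37.3 TPM in B, against 1.39 in C and 1.35 in D (log2 ratio 5.01 ± 1.22, edgeR adjusted p = 0.32). It passed with the length and GC offset. Ndufa1 (1.97 ± 1.10) and Cox4i2 (2.13 ± 1.29) followed, both without passing. Cox5a, Uqcrfs1, Cyc1 and Atp5b had the smallest p among members with ratios below 0 in B, and each was highest in C.

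**Figure D5:**
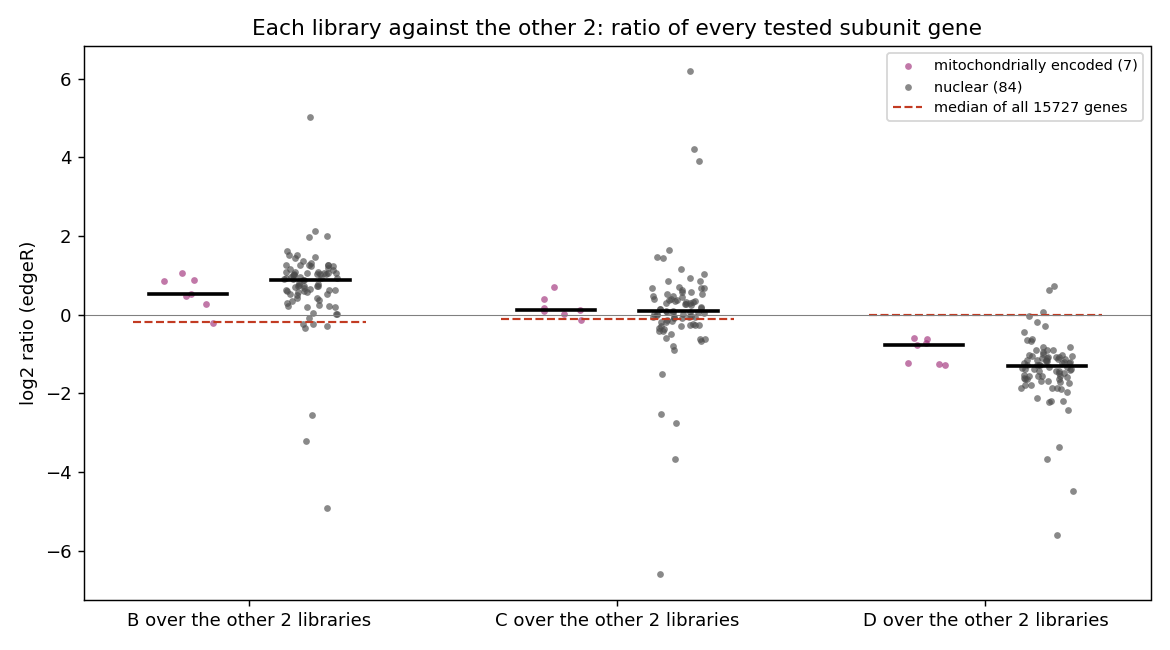
Log2 ratio of each library over the other 2 for the 7 mitochondrially encoded (left in each pair) and 84 nuclear (right) subunit genes tested. Black bars are the members' medians and dashed lines the median of all 15727 genes; in D both medians, -0.77 and -1.31, lie below the dashed line.

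Genes that build and supply the complexes were detected almost throughout. At 1 TPM or more in every library stood 16 of 16 matched assembly factors of complex I, 4 of 4 of complex II, 6 of 6 of complex III, 17 of 20 of complex IV and 6 of 6 of complex V, the last including the member Atp5mpl. Ndufaf2, a complex I assembly factor, had 391, 204 and 463 TPM in B, C and D. Uqcc2, which acts in cytochrome b expression, had 917, 520 and 496 TPM, and Coa3, which acts on the newly made COX1 protein, had 1046, 817 and 695 TPM. Sco2 and Pet117 of complex IV were listed at 0 in every library.

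The edgeR test called 1 gene of each of the complex IV and complex V assembly lists in C, against 0.782% of all genes, and none in B or D, where 0% of all genes passed. Cox18, an insertase for the COX2 protein, had 449 counts in C, against 54 in B and 74 in D. Tmem70, needed for ATP synthase assembly, had 1220 counts in C, against 136 in B and 210 in D. Ndufab1, the acyl carrier subunit of complex I that the symbol rule does not take, had 952 counts in C, against 228 in B and 205 in D, and did not pass.

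Of 18 citric acid cycle genes, all were detected and none was called in any library. Mdh2, malate dehydrogenase, was the highest, with 2351, 1651 and 1789 TPM in B, C and D. In D their median log2 ratio was 0.13, with 9 higher and 9 lower, beside -1.31 for the nuclear subunits. The assembly factor lists, in contrast, had medians below 0 in D. They were -0.89 for complex I (13 of 16 lower), -0.67 for complex II (4 of 4) and -0.48 for complex III (5 of 6). Complex IV had -0.89 (13 of 18) and complex V, with the member Atp5mpl, -1.43 (6 of 6). Of all genes 50.5% were lower. The adenine nucleotide carrier Slc25a4 had 4560, 4435 and 2654 TPM in B, C and D, and Slc25a5 had 1021, 788 and 1102 TPM. Of 12 carrier genes 8 were detected, with a median log2 ratio of -0.91 in D, and Ucp3 was at 0.

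Of 18 genes of mitochondrial DNA replication and transcription, 16 were detected. Slirp had the highest mean, with 107, 55.6 and 59.9 TPM in B, C and D, though Mterf2 (71.3 and 64.7 TPM) and Tefm (66.9 and 73.8 TPM) exceeded it in C and D. Regulators of mitochondrial biogenesis were low, with 6 of 10 detected. Nrf1, a transcription factor for many respiratory genes, had 22.8 TPM in D, against 7.23 in B and 3.99 in C. Yy1 had 26.8 TPM in D, against 8.41 in B and 14.4 in C, and Gabpa had 15.2 TPM in D, against 2.53 in B and 4.37 in C. Of these 10 regulators 8 were higher in D, against 49.5% of all genes, with a median log2 ratio of 0.75, and none passed the edgeR test. The mitochondrial ribosomal RNA mt-Rnr2 had 5955, 6630 and 6973 TPM in B, C and D.

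Promoters were searched for GCATGCG, the core of the NRF1 motif, which reads CGCATGC on the other strand. They were also searched for CCGGAAG, the core of an ETS motif, which reads CTTCCGG on the other strand. NRF1 and the ETS factor GABP are known regulators of respiratory genes. RefSeq promoters of GRCm38.p6, reaching from upstream of the gene start into its first bases, were found for 66 nuclear members. The NRF1 core was in 10 of them (15.2%), against 984 of 27025 promoters (3.64%). The ETS core was in 15 (22.7%), against 2465 (9.12%). The letters of the cores do not overlap each other, and no allowance was made for base composition. The excess of the ETS core among members was not seen with a longer form of that motif. Both cores were in Cox6a1, Atp5k, Uqcr11, Sdhb and Atp5l. The promoters of Cox6a1 (chr5:115348909-115349208, minus strand) and Ndufa6 (chr15:82354242-82354541, minus strand) are shown as those of the highest members with the NRF1 core. Capitals mark the matches, which in Cox6a1 are the NRF1 core on both strands and the ETS core.
Cox6a1: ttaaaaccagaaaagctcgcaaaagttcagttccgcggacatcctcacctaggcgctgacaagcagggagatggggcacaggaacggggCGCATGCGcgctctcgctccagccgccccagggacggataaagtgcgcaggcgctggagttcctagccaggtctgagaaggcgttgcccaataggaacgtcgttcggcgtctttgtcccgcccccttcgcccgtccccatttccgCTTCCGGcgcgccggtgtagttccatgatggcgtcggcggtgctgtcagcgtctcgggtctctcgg
Ndufa6: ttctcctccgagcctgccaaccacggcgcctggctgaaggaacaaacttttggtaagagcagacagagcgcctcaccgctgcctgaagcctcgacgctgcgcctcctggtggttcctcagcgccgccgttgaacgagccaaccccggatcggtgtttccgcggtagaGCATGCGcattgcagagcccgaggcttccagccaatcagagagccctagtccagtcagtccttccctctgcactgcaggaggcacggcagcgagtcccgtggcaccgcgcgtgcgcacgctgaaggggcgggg
A match to these letters is a description of the promoter and does not show that a factor binds there.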

How the data were processed

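For each library the authors deposited raw read counts, CPM and RPKM with exon coordinates and a gene length for 41388 Ensembl genes. The submitters' processing notes list Subread, featureCounts 1.4.5 and the build GRCm38.p2, with no roles. The sources used here do not give the strand setting or the rule for reads that match several places. Per the labels' protocols a SMARTer low-input kit was used, which does not mark strand. The deposited CPM and RPKM values were not used further, and all results start from the deposited counts. Symbols were matched for 40254 genes, and 1134 had none.

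Count and deposited length gave TPM; this length joins all exons of a gene. Comparisons within libraries used log2(TPM + 0.1) and exact sign-flip tests over libraries. Each library was set against the other 2 with edgeR 4.0.16 (TMM, filterByExpr, quasi-likelihood, Benjamini-Hochberg threshold 0.05 over all genes tested) in R 4.3.3. Standard errors are approximate, from the ratio and its F statistic. The fit and the window count were tested on simulated data. Alternatives were DESeq2 1.42.0, its size factors, no scaling, no filter, a length and GC offset (mgcv 1.9.3), other lengths, pseudocounts and member sets, and leaving out each library. Those on zeros, transcript lengths and shared windows were added after seeing the data. Of the members, 31 share exon bases with another gene, so their reads cannot be assigned with certainty without strand.

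The promoter motif cores were chosen after longer forms of both motifs had been searched. The longer forms matched fewer promoters, and the longer ETS form was about as frequent among members as among all promoters.

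The members, the lists and the tests were chosen with earlier results of these data known, so no p is given over a list. Named are all mitochondrial members, the 4 highest of each complex, members of pairs, those under 1 TPM in any library, those that passed edgeR, and the 4 higher and 4 lower with the smallest p in each library. Pathway lists name their highest members and those that passed. Nothing in the labels says that a pool was split, and p-values measure only the spread between these pools. The limit behind a count of 0 was set at 3 counts (0.166 CPM in B, 0.257 CPM in C, 0.143 CPM in D). It reflects counting error alone, since amplified reads without molecular identifiers do not stand for separate molecules. Values of some single marker genes are not reported here.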

Additional observations from a re-analysis of the deposited data

How the results depend on the processing

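Of 133 values under alternatives, 112 were labelled unchanged, by a rule that differed between results. Sign-flip results had to keep their direction and their side of the threshold. Shares and differences between mitochondrial genes had to stay within the SD over libraries, and counts within a set fold. Library medians had to stay within the SD of their own values with a library left out, which is not a spread between libraries. Leaving out a library cannot move a share by a full SD, so that outcome was fixed in advance. For the sign-flip results, the difference of medians and the pair ratios, no p could fall below 0.25. There the side of the threshold was fixed in advance, so only a change of direction could count against them, whatever the change in size. The mitochondrial share of summed subunit TPM was 16.7% without members whose exons overlap another gene, and leaving out each library gave 28.3% to 33.8%. The subunits' share of all counts, by CPM without length, was 4.48%, and the share of TPM was 6.88% to 8.58% when each library was left out. The difference of medians stayed above 0 in every alternative run, from 0.28 to 4.10 log2 units, and from 1.14 to 1.27 when each library was left out. In B, 1 member was called with the length and GC offset, and leaving out a library gave medians of 0.43 to 1.56 for nuclear and 0.32 to 0.84 for mitochondrial members. In C, 4 members were called with the offset (Ndufa4l2 added) and 4 by DESeq2 (Sdhd added), the nuclear median was -0.017 with no scaling, -0.078 with the length and GC offset and -0.43 to 1.00 when a library was left out, and the mitochondrial median was -0.32 to 0.85 then. In D, 24 members were called without the filter and 10 by DESeq2. The nuclear median in D was -0.75 with the length and GC offset and -0.65 in TPM. The mitochondrial median in D was -0.81 with DESeq2 size factors, -0.53 with no scaling, -0.74 with the offset, -0.063 in TPM and -0.85 to -0.84 when a library was left out. On unshared length the log2 difference of mt-Nd2 and mt-Nd4 was -1.04. Over all genes, 0 were called in B and 3 with the offset. In C 123 were called, and 95 to 262 under other fits. In D 0 were called, 8 with DESeq2 size factors, 89 with no scaling, 690 by DESeq2 and 1534 without the filter. The causes of these shifts were not tested. No paired analysis was possible because the series has a single group. With a library left out, the ratio of the remaining pair has no residual degrees of freedom and was given with no test.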
